A study of Mus musculus with 11 samples.

Results

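T cell receptor variable segments were read from the whole-transcriptome profiles of mouse regulatory T cells (Tregs). Every gene of the deposited table whose symbol starts with Trav, Trbv, Trdv or Trgv was taken, which gave 74 of 14604 listed genes. Of these, 52 were alpha segments (Trav), 21 were beta segments (Trbv), 1 was a delta segment (Trdv1) and 0 were gamma segments. All 74 passed the filter on low values.

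All mice carried MC38 tumors, a mouse colon adenocarcinoma line, and Tregs were sorted as live CD4+GITR+CD25+ cells. Wild-type (WT) mice were CD177flox/flox. Knockout (KO) mice were CD177flox/flox/FOXP3-CreYFP, in which Cre is driven by Foxp3, the lineage factor of Tregs, so that the floxed gene is removed in Foxp3-expressing cells. There were 3 spleen WT, 3 spleen KO, 3 tumor WT and 2 tumor KO libraries. Spleens came from tumor-bearing mice, and no spleen of a mouse without a tumor was analysed here. Tumors were dissociated with enzymes and by mechanical force but spleens by mechanical force alone, so tissue and dissociation cannot be told apart. Tumor and spleen were taken from the same mice, but no label says which libraries share a mouse, and no label gives the number of mice behind a library. P-values therefore measure only the spread between these libraries. Cd177, the targeted gene, was not listed, so its level could not be set against the genotype labels.

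An alpha beta T cell builds each receptor chain by joining 1 variable segment to a joining segment (with a diversity segment between them in the beta chain) and splicing the result to a constant region. The segment therefore marks which V gene a cell chose, and cells of 1 clone share the choice. In bulk RNA the level of a segment reflects the cells that chose it and the receptor RNA in each, and fewer cells and less RNA per cell cannot be told apart. Junctions, and thereby clones, are not read by a table of genes.

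The last bases of a V segment encode the conserved cysteine at which the third hypervariable loop of the chain begins. The 60 bases at the 3′ end of 4 segments are shown because the results turn on them, each 5′ to 3′ with the last in-frame cysteine codon in capitals (GENCODE release M21 on GRCm38, plus strand). Trbv13-2 had the highest mean share of summed Trbv n in spleen, and Trbv4 fell in tumor. Trbv15 and Trav14d-1 took large shares of 1 tumor library.
Trbv13-2, chr6:41121773-41121832: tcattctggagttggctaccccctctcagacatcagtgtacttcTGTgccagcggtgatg
Trbv4, chr6:41059827-41059886: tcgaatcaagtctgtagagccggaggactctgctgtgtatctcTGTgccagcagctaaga
Trbv15, chr6:41141599-41141658: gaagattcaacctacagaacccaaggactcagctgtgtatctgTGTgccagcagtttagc
Trav14d-1, chr14:52856107-52856166: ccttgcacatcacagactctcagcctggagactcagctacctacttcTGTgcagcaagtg

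Neighbouring segments can be near copies, and this decides how reads are split. Trbv12-1 (chr6:41113550-41114067) and Trbv12-2 (chr6:41118851-41119364) are 87.4% identical over their transcripts and differ at 9 of their last 120 bases, in capitals here.
Trbv12-1: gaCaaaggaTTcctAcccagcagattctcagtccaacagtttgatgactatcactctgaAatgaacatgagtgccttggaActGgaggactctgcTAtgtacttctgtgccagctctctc
Trbv12-2: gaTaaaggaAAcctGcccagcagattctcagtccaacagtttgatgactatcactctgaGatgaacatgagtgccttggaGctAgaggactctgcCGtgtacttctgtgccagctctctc

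The alpha locus is harder to resolve, because a large part of its V array is present in copies whose names carry d or n. Of the listed Trav segments, 15 were d copies, 13 were n copies and 24 were neither. In 8 d and n pairs the values were identical in all 11 libraries, so 52 rows held 44 distinct profiles. The listed Trbv segments lie within chr6:40891229-41558452, with Trbv31 alone on the minus strand, and the Trav segments within chr14:52778447-53845827. The annotation holds 128 Trav genes (20 of them pseudogenes), 35 Trbv genes (13 pseudogenes), 6 Trdv genes and 1 Trgv gene. It also holds 6 gamma V genes under Tcrg-V symbols, which the rule on symbols does not match, and 0 of them were listed. Of the 22 Trbv genes it marks as functional, 20 were listed, and 1 pseudogene, Trbv24, was listed as well. A listed gene is above 0 in all 11 libraries, so a segment absent from 1 library is not in the table. Trav11 and Trav11d, the alpha segments of invariant natural killer T cells, and Trav1, that of mucosal-associated invariant T cells, were not listed, and nor was any joining or diversity segment.

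Values are log2(n + 1), with n the gene value that the authors transformed. For the 17 Trbv segments with a single annotated transcript, n times the exon length less 179 bases came out as whole multiples of 1 number per library, to within 0.0001 read, in 179 of 187 values (95.7%). The remaining 8 were Trbv13-2 and Trbv13-3 in 4 libraries, whose sum was whole in all 11 libraries. No other subtracted length in the range searched gave more than 5 whole values in a library. On this reading n is a level per effective length for a fragment of 180 bases, and the reads behind each segment can be recovered. Spleen libraries held 2107 to 3091 Trbv reads and 1184 to 1717 Trav reads. Tumor libraries held 424 to 982 Trbv reads and 416 to 826 Trav reads, and in tumor 20 to 37 of the 52 Trav segments rested on fewer than 10 reads in each library, against 7 to 13 in spleen. Reads of Trav segments came out mostly fractional by the same calculation, for a reason that was not tested, and are given as estimates.

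Markers of the sorted cells and of other cells were read beside the segments. The 6 Treg markers (Foxp3, Il2ra, Ikzf2, Ctla4, Tnfrsf18 and Cd4), all listed, had a summed n of 927 to 1081 in spleen and 796 to 1302 in tumor. This sum joins genes that moved in opposite directions. Mean log2(n + 1) was lower in tumor for Foxp3, Ikzf2, Cd4 and Il2ra, and higher for Ctla4 and Tnfrsf18. In spleen and tumor it was 6.347 and 5.498 for Foxp3 and 7.485 and 6.399 for Ikzf2. For Ctla4 it was 8.153 and 8.723, and for Tnfrsf18 6.428 and 7.51. The 5 myeloid markers, all listed, summed to 90.2 to 244 in spleen and 6592 to 10167 in tumor, and 2 of 3 fibroblast markers, without Dcn, to 0.567 to 1.29 and 359 to 824. Cd8a and Cd8b1, both listed, summed to 5.28 to 9.29 in spleen and 26.5 to 109 in tumor. The B cell genes Cd79a, Cd79b, Ms4a1, Ighm and Ighd summed to 174 to 382 in spleen and 27.5 to 75.9 in tumor. The part of these other cells in the levels below was not tested, and it moves with tissue in every library.

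The first comparison asked whether the receptor readout differed between tumor and spleen. Summed n of all Trav and Trbv segments made up 0.190% ± 0.013 (SD over 6 libraries) of the library total in spleen and 0.063% ± 0.018 (SD over 5) in tumor. No tumor library reached a spleen library, with 0.0848% the highest in tumor and 0.176% the lowest in spleen. On the log2 scale tumor differed by −1.63 (two-sided exact permutation test over 462 assignments, p = 0.0043, the smallest this design can give). Library totals of n were themselves larger in tumor, at 1103159 to 1304548 against 712832 to 844331 in spleen.

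Segment by segment, 44 of 74 fell in tumor and 0 rose (limma, adjusted p below 0.05), where 35.9% of all 13897 tested genes fell and 43.1% rose. Among Trbv segments 19 of 21 fell, among Trav segments 25 of 52. The median difference was −1.33 for Trbv and −0.75 for Trav on the log2(n + 1) scale, against 0.08 over all tested genes. In 17 segments, 12 Trbv and 5 Trav, every tumor library lay below every spleen library, which was so for 28.4% of all tested genes. The count depended on the scale. With each library scaled to equal summed n of 7 T cell genes (Trac, Trbc1, Trbc2, Cd3d, Cd3e, Cd3g and Cd247), 15 segments fell and 4 rose, where 11.6% and 65.9% of all tested genes did.

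Constant genes of the receptor moved with the segments. Trac, which encodes the alpha constant region, differed by −0.56 (SE 0.160, limma adjusted p = 0.0062), Trbc1 by −1.20 (SE 0.233, adjusted p = 0.00037) and Trbc2 by −1.64 (SE 0.173, adjusted p = 1.57e-06). Of the 4 CD3 genes, whose proteins signal for the receptor, Cd247, Cd3e and Cd3d fell by 1.27, 0.62 and 0.40 (limma adjusted p = 1.08e-07, 0.000245 and 0.0051). Cd3g differed by −0.03 (adjusted p = 0.84). Of the genes of recombination and of the pre-receptor, Rag2 and Ptcra fell by 0.59 and 1.10, and Rag1 and Dntt were not listed. Of the gamma constant genes, Tcrg-C1 fell by 1.42 (SE 0.475, limma adjusted p = 0.015), Tcrg-C2 differed by 0.70 (SE 0.525, adjusted p = 0.23), and Tcrg-C4 was not listed, nor was Trdc, the delta constant gene.

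The segments followed the constant genes closely. Summed V n per summed n of Trac, Trbc1 and Trbc2 was 0.733 ± 0.030 (SD over 6 libraries) in spleen and 0.779 ± 0.041 (SD over 5) in tumor, a log2 difference of 0.09 (exact two-sided permutation p = 0.069). Without spleen KO 1 it was 0.10 (exact p = 0.040) and without tumor WT 1 it was 0.11 (exact p = 0.048). The alpha and beta loci did not fall alike. Summed Trbv per summed Trav n was 1.40 to 1.82 in spleen, with a median of 1.69. It was 1.09, 1.11 and 0.959 in tumor WT 1, 2 and 3, and 0.993 and 0.875 in tumor KO 1 and 2. The groups did not overlap (exact two-sided permutation p = 0.0043). Trav per Trac was 0.794 ± 0.045 in spleen and 0.776 ± 0.062 in tumor (exact p = 0.58), while Trbv per Trbc was 0.701 ± 0.030 and 0.783 ± 0.039 (exact p = 0.0087). Across the 11 libraries, the non-member genes whose log2 value went most like summed Trav were Cd3d (Pearson r = 0.983), Lta (0.981), Rbl2 (0.974), Trac (0.973) and Prr14l (0.971). For summed Trbv they were Gm2420 (0.991), Cd96, Parp6, Rmnd5b and Stk26. These are descriptions over libraries that share tissue and depth.

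By share of n, Trbv13-2 and Trbv3 were the 2 most used Trbv segments in all 6 spleen libraries, and the order of the others varied. Since n is a level per effective length, the order between segments depends on annotated exon length. In recovered reads Trbv3 exceeded Trbv13-2 in each spleen library, with ranges of 239 to 496 and 161 to 302. Trbv13-2 had 11.6% ± 1.4 of summed Trbv n, Trbv3 10.1% ± 1.9, Trbv5 6.93% ± 0.31, Trbv1 6.80% ± 0.78 and Trbv12-2 6.70% ± 0.56 (SD, n = 6). Trbv13-2 and Trbv3 overlapped in range, at 9.50 to 13.5% and 8.19 to 12.9%, and the next 3 did not differ beyond their spread. At the low end stood Trbv23 (0.568%) and the pseudogene Trbv24 (0.530%). Mean shares of spleen WT and spleen KO ranked alike (Spearman rho = 0.95 over 21 segments, a description).

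In tumor the same 5 segments had the highest mean shares, led by Trbv1 at 11.7% ± 4.1 (SD, n = 5), but the order differed from library to library. Trbv1 took 13.9, 8.0 and 17.9% in tumor WT 1, 2 and 3, and 9.36 and 9.61% in tumor KO 1 and 2, against 5.55 to 7.71% in spleen. All 5 tumor values thus lay above all 6 spleen values, while on the V-scaled fit of both loci together, described below, the difference was 0.41 (SE 0.202, limma adjusted p = 0.074), and 0.72 with each locus scaled on its own (SE 0.202, adjusted p = 0.0035). By share of n, the most used segment was Trbv1 in tumor WT 1 and WT 3 and Trbv26 in WT 2 (13.2%). In tumor KO it was Trbv5 in KO 1 (13.1%) and Trbv12-2 in KO 2 (13.0%). In spleen it was Trbv13-2 in 5 libraries and Trbv3 in spleen WT 3.

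**Figure D1:**
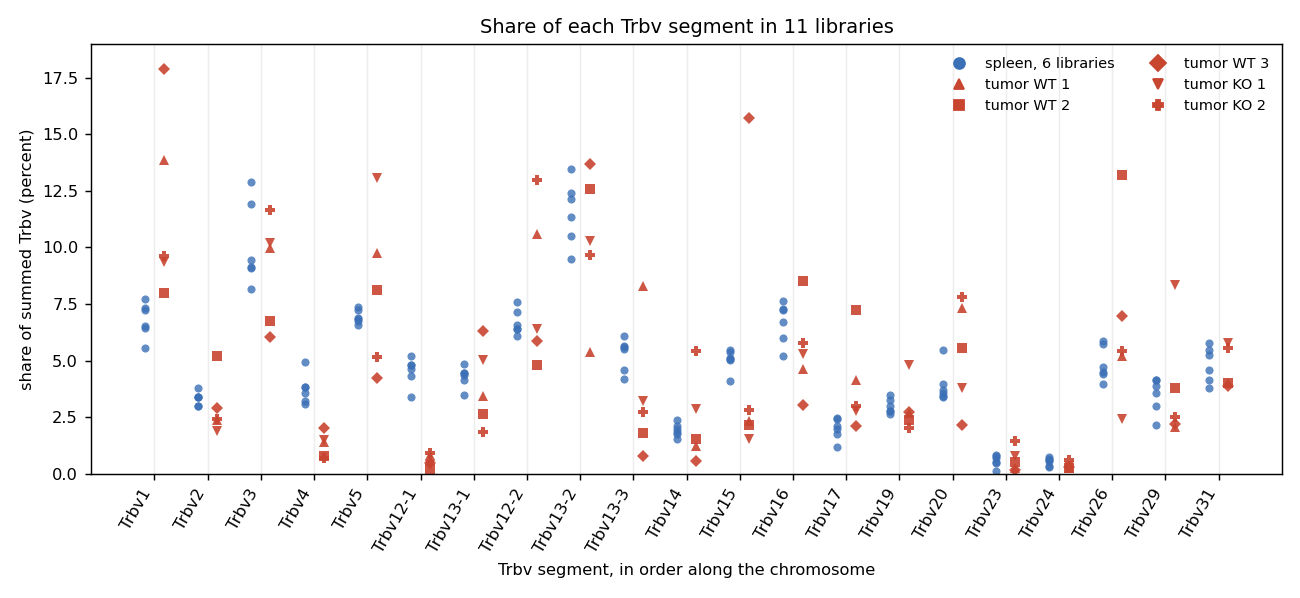
Share of each of 21 Trbv segments in the summed Trbv n (percent, vertical axis), with segments in order along the chromosome; blue circles are 6 spleen libraries and red symbols the 5 tumor libraries, 1 symbol per library. Spleen points lie close together, tumor points scatter, Trbv15 reaches 15.7% in tumor WT 3, and Trbv12-1 and Trbv4 lie below spleen in all 5 tumor libraries.

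The alpha locus showed the same contrast. By share of summed Trav n, the leading spleen segments were Trav14n-3 (4.87% ± 0.34), Trav7-2 (4.58% ± 0.48) and Trav14d-1 (4.30% ± 0.56). Trav3-3 (3.65% ± 0.71) and Trav6-7-dv9 (3.43% ± 0.37) came next (SD, n = 6). This order too depends on annotated exon length, which was 280 bases for Trav14n-3 and 415 for Trav14d-1. Their median estimated reads in spleen were 37.1 and 71.8, and Trav9n-4, which is not among those named, had 69.0. In tumor Trav14d-1 took 0.970, 2.33 and 20.7% in WT 1, 2 and 3, and 1.46 and 1.80% in KO 1 and 2, which rested on 9.88, 11.99, 198.1, 12.95 and 9.996 estimated reads. Its mean in tumor, 5.44%, was therefore set by 1 library. Of the 5 segments with the highest means in tumor, Trav7-2 varied least, with 3.65 to 6.4% in tumor against 3.98 to 5.16% in spleen. Trav13-1 at 3.99% ± 2.8 and Trav12-2 at 3.85% ± 2.4 (SD, n = 5) were also among these 5. The 15 d copies together took 22.4% ± 0.99 in spleen and 25.5% ± 10 in tumor, and the 13 n copies 22.1% ± 0.76 and 21.7% ± 3.2. Both sets overlapped between the tissues, with d copies at 21.3 to 23.6% in spleen and 16.3 to 42.3% in tumor.

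**Figure D2:**
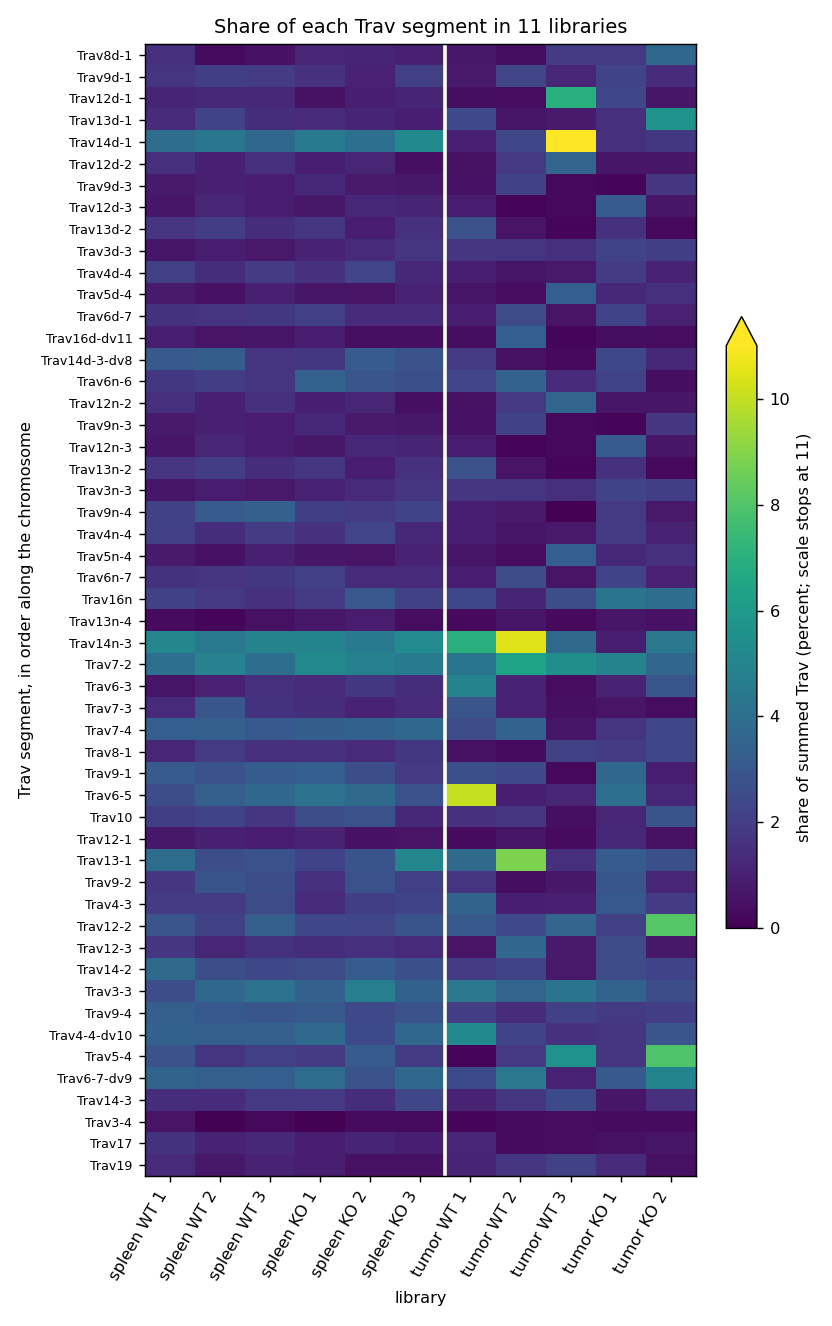
Heat map of the share of each of 52 Trav segments in the summed Trav n (percent, color, scale stopping at 11), with segments in chromosome order from top to bottom and 11 libraries from left to right, the white line separating spleen from tumor. The 6 spleen columns look alike, while bright cells differ between the tumor columns, such as Trav14d-1 in tumor WT 3 (20.7%) and Trav14n-3 in tumor WT 2 (10.4%), and tumor KO 1 has no share above 4.92%.

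Enlarged segments were picked library by library. For every library the segment with the highest share relative to the median of the other libraries of its tissue was taken, among those with a mean share of at least 1% of their locus. For Trbv these were Trbv13-3 in tumor WT 1 (8.29% against a median of 2.26%, 3.67-fold), Trbv17 in WT 2 (7.21%, 2.51-fold), Trbv15 in WT 3 (15.7% against 2.25%, 6.99-fold), Trbv29 in KO 1 (8.33%, 3.52-fold) and Trbv14 in KO 2 (5.41%, 3.91-fold). The 5 segments all differed. In spleen the same rule gave 1.2-fold to 1.54-fold. For Trav the tumor ratios were 8.23 (Trav6-5, WT 1), 4.83 (Trav12-3, WT 2), 13.2 (Trav12d-1, WT 3), 4.46 (Trav12d-1, KO 1) and 4.86 (Trav13d-1, KO 2), against 1.6 to 2.2 in spleen. Trav12d-1 is named in both WT 3 and KO 1, at 6.99% and 2.36%. Since the rule picks the largest ratio of each library, these ratios are descriptions.

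Reads recovered for these segments show what they rest on. Trbv15 had 21, 10 and 117 reads in tumor WT 1, 2 and 3 and 11 in each tumor KO library, against 92 to 156 in spleen. In log2(n + 1) it stood at 3.81, 2.95 and 5.82 in tumor WT and at 3.02 and 2.95 in tumor KO, against 5.36 to 5.72 in spleen. Tumor WT 3 thus lay above every spleen library and the other 4 tumor libraries below. Trbv13-3 had 63 reads in tumor WT 1 and 5 to 19.2 in the other 4, and Trbv29 had 54 in tumor KO 1 and 9 to 17 in the others. Other picks were matched in reads by a tumor library with more reads of the locus. Trbv17 had 34 reads in tumor WT 2 and 38 in WT 1, and Trbv14 had 21 in KO 2 and 20 in KO 1. In estimated reads Trav12-3 had 20.7 in WT 2 and 24.9 in KO 1, and Trav13d-1 28.6 in KO 2 and 22.8 in WT 1. Trav6-5 had 85.0 in WT 1 and 4.04 to 29.5 in the other tumor libraries.

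The spread between libraries of 1 tissue was larger for the segments than for genes in general. The median SD of log2(n + 1) was 0.32 in spleen and 0.82 in tumor over the 74 segments, against 0.15 and 0.21 over all tested genes. Over the 9435 tested genes whose tumor mean lay within the range of the segments it was 0.22 in tumor. This set was matched on n and not on reads, so counting error was not matched. An SD of at least 1 in tumor was found for 23 of the segments (31.1%, 21 of them with distinct values) and for 87 of 13897 tested genes (0.626%). In spleen it was found for 0 segments and for 45 tested genes. The SD was larger in tumor than in spleen for 68 of 74 segments. Trac, Trbc1 and Trbc2 had a median SD of 0.47 in tumor. The 3 widest segments were Trav6-5 (SD 1.65), Trav12d-1 (1.59) and Trav14d-1 (1.58).

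**Figure D3:**
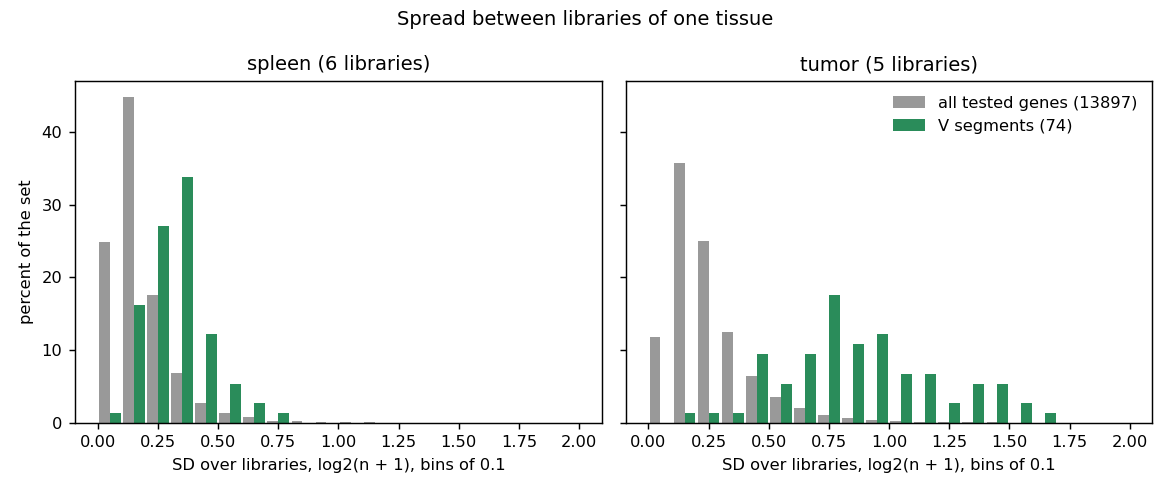
Percent of genes (vertical axis) by the SD of log2(n + 1) over the libraries of 1 tissue (horizontal axis, bins of 0.1), for 74 V segments in green and 13897 tested genes in grey, spleen on the left and tumor on the right. In tumor the segments reach far to the right of the other genes, with 31.1% at an SD of at least 1 against 0.626%; the axis stops at 2, and 5 tested genes in tumor and 4 in spleen, with 0 segments among them, lie beyond it.

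Low counts widen the spread, so the recovered reads of a locus were compared across the libraries of 1 tissue. If libraries differed by counting error alone, the chi-square statistic divided by its degrees of freedom would lie near 1. For Trbv it was 2.60 in spleen and 8.90 in tumor, and for Trav, with identical copies pooled and fractional reads, 1.80 and 9.85. Reads are not independent molecules, since no molecular identifiers were used, and the statistic is given without a p-value. Tumor libraries thus differed by a larger multiple of the counting error of reads than spleen libraries.

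Evenness of usage was summarised by the effective number of segments, the exponential of the Shannon entropy of the shares, which equals the number of listed segments when all are used alike. For Trbv it was 17.6 ± 0.30 (SD, n = 6) in spleen, with a range of 17.2 to 18.01. It was 15.4, 15.2 and 13.2 in tumor WT 1, 2 and 3, and 15.8 and 15.9 in tumor KO 1 and 2. All tumor libraries lay below all spleen libraries, with a difference of −2.54 (exact two-sided permutation p = 0.0043). For Trav it was 43.6 ± 0.74 (SD, n = 6) in spleen, with a range of 42.5 to 44.6. In tumor it was 35.9, 34.7 and 26.2 in WT 1, 2 and 3, and 44.1 and 37.2 in KO 1 and 2, so that KO 1 lay within the spleen range. The difference was −7.95 (exact p = 0.022). With identical copies pooled, the Trav groups separated fully, at 37.4 to 38.7 in spleen and 22.7 to 36.7 in tumor (exact p = 0.0043).

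Corrections for the lower depth of tumor did not change these calls, but they treat reads as independent draws. Duplicate reads and the number of cells sampled were not corrected for, and Trav reads are fractional estimates. The inverse Simpson index of the recovered reads, with the part that counting error adds removed, was 15.8 ± 0.67 in spleen and 12.8 ± 1.5 in tumor for Trbv, and 35.5 ± 0.82 and 25.3 ± 7.3 for Trav with identical copies pooled (exact permutation p = 0.0043 for each). With segments summed by family number the difference did not pass the test. The effective number of families was 13.3 ± 0.51 in spleen and 12.7 ± 0.997 in tumor for Trbv (exact p = 0.30), and 10.7 ± 0.24 and 10.3 ± 1.04 for Trav (exact p = 0.49).

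The dissimilarity of usage between pairs of libraries gave the same order. The mean Bray-Curtis dissimilarity, which runs from 0 for identical shares to 1 for no overlap, was 0.081 over 15 spleen pairs and 0.273 over 10 tumor pairs for Trbv, a difference of 0.192 (exact permutation p = 0.0043 over 462 assignments of libraries). For Trav it was 0.126 and 0.399, a difference of 0.273 (exact p = 0.0043). No tumor pair was as alike as any spleen pair, at 0.185 to 0.337 against 0.061 to 0.120 for Trbv and 0.311 to 0.512 against 0.101 to 0.142 for Trav. Pairs of 1 tumor and 1 spleen library had means of 0.234 and 0.303, between those of the tissues. By the Bray-Curtis measure, tumor libraries were thus on average less like each other than like spleen libraries. Counting error adds to this measure, most where both libraries have few reads, and no corrected value between tissues was computed. A Morisita dissimilarity of the reads is not inflated by counting error if reads are independent draws. It was 0.013 in spleen and 0.167 in tumor for Trbv and 0.015 and 0.387 for Trav (exact permutation p = 0.0043 for each). Tumor and spleen libraries of the same genotype and number were no more alike than others, at 0.242 against 0.233 for Trbv and 0.308 against 0.302 for Trav.

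**Figure D4:**
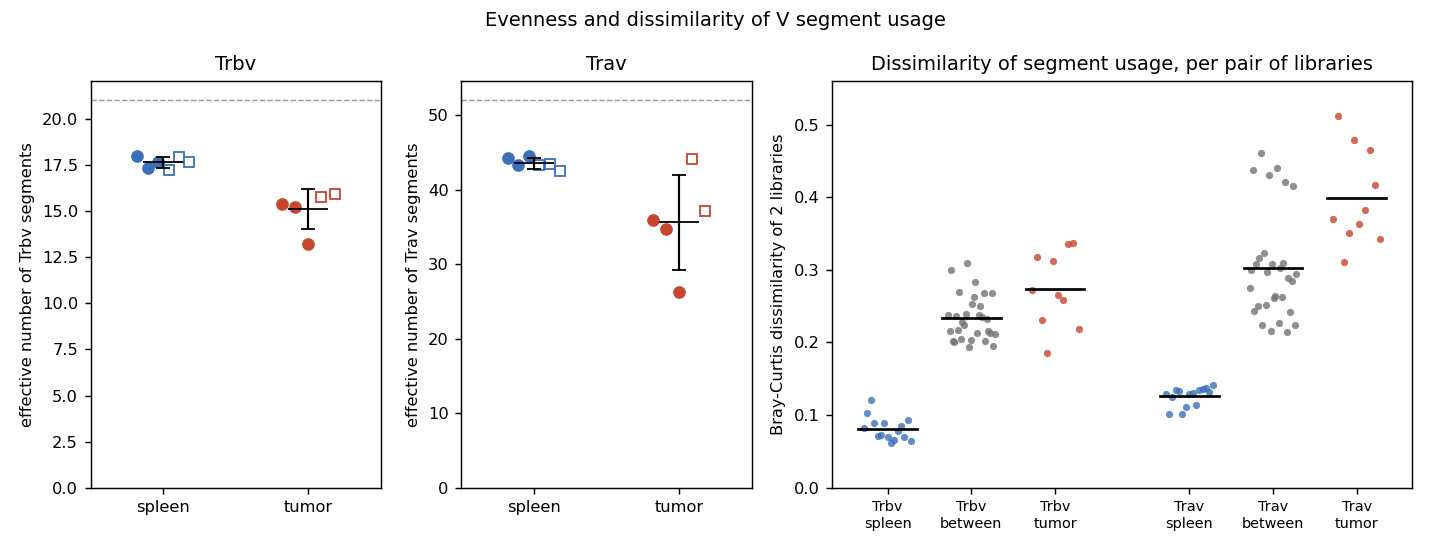
Effective number of Trbv (left) and Trav (middle) segments in each library, with filled circles for WT, open squares for KO, the mean and SD in black, and a dashed line at the number of listed segments; on the right, the Bray-Curtis dissimilarity of each pair of libraries with the mean as a line. The 5 tumor libraries lie below all spleen libraries for Trbv, tumor KO 1 lies within the spleen range for Trav (44.1), and tumor pairs are less alike than spleen pairs.

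To set aside the lower receptor level of tumor, each library was scaled so that summed Trav and Trbv n were equal (V-scaled), and the whole table was fitted again. On this scale 12 segments fell in tumor, 10 Trbv and 2 Trav, and 6 rose, all of them Trav (limma, adjusted p below 0.05). Of all tested genes 9.71% fell and 68.1% rose on it, since the receptor genes themselves are lower in tumor. The count of 18 was 11 without spleen WT 2 or without spleen KO 1 (4 higher and 7 lower in each case), and 21 with the replicate block (11 higher, 10 lower). The median difference was −0.39 for Trbv and 0.08 for Trav. Since both loci were scaled together, these differences carry the lower Trbv per Trav of tumor and are not usage within a locus. Of the 18, the libraries of tumor and spleen did not overlap for Trbv12-1 and Trbv4, which lay below, and for Trav3d-3, Trav3n-3 and Trav7-2, which lay above. Trav3d-3 and Trav3n-3 have identical values and are the same profile. The share of all tested genes without overlap on this scale is not given here, so these names are descriptions.

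With summed Trav and summed Trbv each scaled to equal sums, an alternative chosen after seeing the data, 12 segments fell and 4 rose (limma, adjusted p below 0.05, where 9.71% of all tested genes fell and 68.1% rose). The split by locus changed. Among Trbv, 3 fell, namely Trbv12-1 (−2.79), Trbv4 (−1.51) and Trbv13-3 (−0.97), and 2 rose, Trbv1 by 0.72 and Trbv17 by 0.81. Among Trav, 9 fell and 2 rose, the latter Trav3d-3 and Trav3n-3, each by 0.73. Trav7-2 differed by 0.09 (SE 0.182, limma adjusted p = 0.67).

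**Figure D5:**
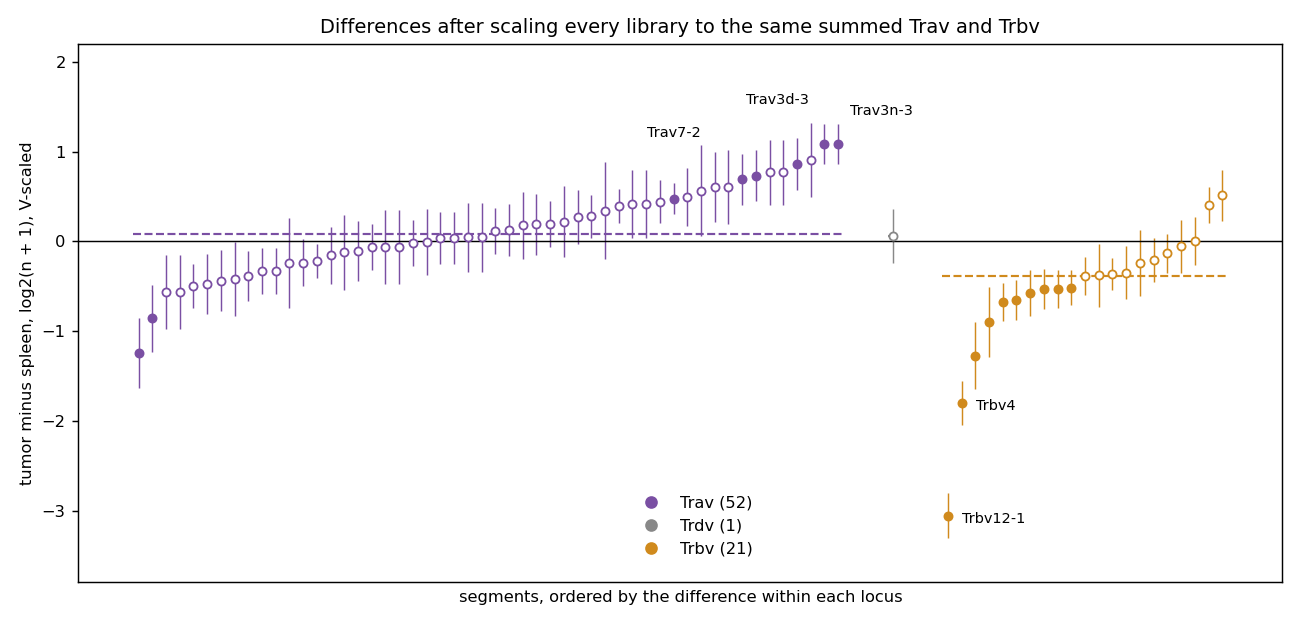
Difference in log2(n + 1) between tumor and spleen after V scaling (vertical axis, limma estimate with its SE as a bar) for 52 Trav, 1 Trdv and 21 Trbv segments, ordered within each locus; filled symbols passed the test and dashed lines are locus medians. Trbv12-1 (−3.06) lies far below the other segments and Trbv4 (−1.80) is the next lowest. Labels mark the called segments without overlap between tumor and spleen libraries.

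Trbv12-1 showed the largest difference. Its log2(n + 1) as deposited was 4.95 to 5.66 in spleen, with a median of 5.50. It was 2.46, 0.69 and 1.45 in tumor WT 1, 2 and 3, and 1.47 and 1.69 in tumor KO 1 and 2. Every tumor library lay far below every spleen library, by 3.85 on average (SE 0.248, limma adjusted p = 1.53e-08) and by 3.06 after V scaling (SE 0.247, adjusted p = 3.95e-09). Its share of Trbv was 3.38 to 5.19% in spleen, and 0.807, 0.197, 0.489, 0.384 and 0.927% in the tumor libraries in the same order.

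Its near copy Trbv12-2 differed less. Trbv12-2 stood at 5.57 to 6.23 in spleen, at 5.91, 4.0 and 4.44 in tumor WT and at 4.92 and 5.01 in tumor KO, with a difference of −1.11 as deposited (SE 0.265, limma adjusted p = 0.0018) and of −0.13 after V scaling (SE 0.220, adjusted p = 0.59). Reads were whole for both segments in all 11 libraries. Trbv12-1 had 102, 96 and 118 reads in spleen WT, 140, 163 and 72 in spleen KO, 8, 1 and 4 in tumor WT and 3 and 4 in tumor KO. Trbv12-2 had 132 to 197 reads in spleen and 103, 24, 47, 49 and 55 in tumor. Of the reads of the pair, Trbv12-1 held 41.1% in spleen (691 reads beside 990 of Trbv12-2, 95% Clopper-Pearson interval 38.7 to 43.5%) and 6.71% in tumor (20 reads beside 278, interval 4.15 to 10.18%). The intervals cover counting error only. In single libraries the share was 34.95 to 45.3% in spleen and 4.0 to 7.84% in tumor, and even the widest tumor interval, that of tumor WT 2 with 1 read, ended at 20.4%, below the lowest spleen bound of 28.5%.

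Trbv4 fell in the same way. It stood at 4.91 to 5.54 in spleen, with a median of 5.07. It stood at 3.13, 1.77 and 3.04 in tumor WT 1, 2 and 3, and at 2.99 and 1.40 in tumor KO 1 and 2. The groups did not overlap, with a difference of −2.67 as deposited (SE 0.298, limma adjusted p = 2.71e-06) and of −1.80 after V scaling (SE 0.244, adjusted p = 2.60e-06). It had 73 to 158 reads in spleen and 14, 4, 17, 12 and 3 in tumor. On the V-scaled fit the other called Trbv segments were Trbv13-3 (−1.27), Trbv15 (−0.90), Trbv24, Trbv16, Trbv13-1, Trbv2, Trbv13-2 and Trbv3, the last 6 between −0.68 and −0.52. Their tumor and spleen libraries overlapped, and of these 8 only Trbv13-3 was called with each locus scaled on its own.

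Trbv13-3 and Trbv13-2, which are 90.6% identical, split outside the spleen range in each tumor library. Trbv13-3 n per Trbv13-2 n was 0.369 to 0.535 in spleen. It was 1.54, 0.143 and 0.058 in tumor WT 1, 2 and 3, and 0.311 and 0.281 in tumor KO 1 and 2. Tumor WT 1 lay above the spleen range and the other 4 libraries below it. In tumor WT 1, 2 and 3 and KO 1 and 2, Trbv13-3 had 63, 7, 5, 19.2 and 9 reads. Trbv13-2 had 41, 49, 86, 61.8 and 32 in the same order. Reads of the pair were fractional in tumor KO 1, and no interval was computed for it.

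Trav3d-3, whose values are identical to those of Trav3n-3, took 0.617 to 1.72% of summed Trav n in spleen, and 1.75, 1.65, 1.48, 2.22 and 2.02% in the tumor libraries. Its difference was 1.09 after V scaling (SE 0.222, limma adjusted p = 0.000235) but 0.23 as deposited (SE 0.235, adjusted p = 0.38), and it rested on 3.5 to 10.7 estimated reads a library. Trav7-2 differed by 0.48 after V scaling (SE 0.175, limma adjusted p = 0.019) and by −0.48 as deposited (SE 0.176, adjusted p = 0.023), so its direction turned with the scale. The V-scaled call was lost with each locus scaled on its own, without tumor WT 2 (limma adjusted p = 0.056) and without tumor WT 3 (adjusted p = 0.056). Trav19, Trav12-2 and Trav16n rose by 0.86, 0.73 and 0.69 with overlapping libraries. The 2 that fell were Trav9n-4 (−1.24) and Trav14d-3-dv8. Trav9n-4 had 56 to 102 estimated reads in spleen and 16.6, 7.2, 0.49, 29.1 and 7.3 in tumor.

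Trdv1, the only delta segment listed, stood at 1.76 to 2.78 in spleen, at 2.02, 0.87 and 0.66 in tumor WT 1, 2 and 3, and at 2.58 and 1.79 in tumor KO 1 and 2. The groups overlapped, with a difference of −0.62 (SE 0.311, limma adjusted p = 0.084) on 1.02 to 12.8 estimated reads a library. Of 6 gamma delta T cell markers 4 were listed, with a summed n of 6.17 to 23.3 in spleen and 4.495 to 38.7 in tumor. Of 5 markers of natural killer T and mucosal-associated invariant T cells 3 were listed (Slamf6, Klrb1c and Zbtb16, without Trav11 and Trav1), and they summed to 92.8 to 133 in spleen and 20.3 to 36.2 in tumor. Slamf6, which other T cells express too, made up most of this, at a mean log2(n + 1) of 6.69 in spleen and 4.79 in tumor, against 2.91 and 1.52 for Klrb1c and 1.90 and 0.56 for Zbtb16. Thymocyte markers, 2 of 4 listed without Rag1 and Dntt, summed to 3.801 to 5.07 in spleen and 1.01 to 1.79 in tumor. Their part in the levels of the segments was not tested.

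Genotype was compared last. Knockout of CD177 in Foxp3-expressing cells was followed by a called change in 0 of 74 segments in spleen (0% of all tested genes called by limma, 3 segments at an unadjusted p below 0.05, as were 2.02% of all tested genes), in 0 in tumor (0.0072% of all tested genes called, 9 segments at an unadjusted p below 0.05, as were 4.56%) and in 0 for the interaction of tissue and genotype (0% called, 6 segments at an unadjusted p below 0.05, as were 2.76%). Median standard errors over the segments were 0.42, 0.47 and 0.63 on the log2 scale. Differences well above these errors could also go uncalled, as the values of Trbv26 and Trav14n-3 in tumor show. The lowest adjusted p was that of Trbv26 in tumor (0.21), which stood at 4.90, 5.39 and 4.68 in tumor WT and at 3.604 and 3.813 in tumor KO, with a difference of −1.28 (SE 0.184) and no overlap. It was at 5.40 to 5.69 in spleen of both genotypes. Trav14n-3 had the largest difference in tumor, −1.61 (SE 0.395, limma adjusted p = 0.72).

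Evenness did not pass a test between genotypes either. The effective number of Trbv segments was 0.06 lower in KO than in WT spleens (exact two-sided permutation p = 0.80, smallest possible 0.1). In tumor it was 1.24 higher in KO for Trbv and 8.39 higher for Trav, with both KO libraries above all 3 WT libraries in each locus (exact p = 0.20, the smallest that 3 against 2 libraries allow). Spleen pairs of the same genotype were as dissimilar as pairs of different genotype, at a mean of 0.081 each for Trbv and of 0.124 and 0.128 for Trav. In tumor the means were 0.280 and 0.269 for Trbv, and 0.426 and 0.381 for Trav.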

How the data were processed

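RNA of sorted Tregs was sequenced in 11 libraries, and samples were grouped by tissue and genotype as labelled. After ribosomal RNA depletion, single-end reads were pseudoaligned to mm10 (kallisto) and the estimated counts were handled in sleuth 0.30.0. The authors summed them by gene symbol and deposited log2(n + 1) values. For the kallisto version, the annotation release and the scaling of n, nothing is given in the sources used here.

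Members and lists were chosen with earlier results of these data known. Tested were the 13897 of 14604 genes whose log2(n + 1) averaged at least 0.5, with limma 3.58.1 in R 4.3.3 (mean-variance trend, Benjamini-Hochberg over all tested genes), on deposited values and after V scaling, 5 tumor against 6 spleen libraries with genotypes pooled. Genotype contrasts used a mean per group. Shares, evenness and dissimilarity used n and exact permutation tests that enumerated the assignments of libraries (two-sided). The permutation test of scipy 1.17.1 served only to check that of the Trbv effective number. Segments were matched to GENCODE M21 on GRCm38 (74 of 74). Fits were tested on simulated data. The segments named are the 5 highest mean shares per locus and tissue, called V-scaled members without overlap, 1 standout segment per library and locus, Trdv1 and the pathway genes. Others (such as Trbv15, Trbv13-3 and Trav9n-4 reads, Trbv26, Trbv23 and Trbv24) were chosen after their values were seen. Alternatives were scaling, pseudocounts, filters, libraries left out and a replicate block. Read recovery, depth corrections, pooled copies, scaling of each locus on its own and totals without Gm12896 were added after the data were seen.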

Additional observations from a re-analysis of the deposited data

Results flagged for a closer look

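Over 42 measures (effective numbers and segment shares) in 2 tissues, 9 of 84 groups held a library whose gap to its nearest neighbour exceeded Dixon's 95% value. Some of these segments were taken in because their share stood out in 1 library. The count of 9 therefore cannot be set against the 1 in 20 of that value. Of the 9, 6 were in tumor. Tumor WT 3 had an effective number of Trbv segments of 13.2 (nearest library 15.2), 15.7% of Trbv from Trbv15 (nearest 2.80%) and 20.7% of Trav from Trav14d-1 (nearest 2.33%). Trav12-2 took 8.08% in tumor KO 2 (nearest 3.59%), Trav7-3 took 2.90% in tumor WT 1 (nearest 1.03%) and Trbv29 took 8.33% in tumor KO 1 (nearest 3.805%). In spleen, Trav7-3 took 2.95% in spleen WT 2 (nearest 1.60%), Trbv20 took 5.48% in spleen WT 1 (nearest 3.98%) and Trbv15 took 4.11% in spleen WT 3, below the nearest 5.003%. Without tumor WT 3 the tumor-minus-spleen difference in the effective number was −2.06 for Trbv and −5.59 for Trav.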

How the results depend on the processing

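Of the comparisons across libraries and the counts of segments called, 215 results under an alternative kept their direction and their side of the threshold (for counts, stayed within 1.5 times), and 19 did not. The tally includes alternatives that could not change a result, such as leaving out pseudogenes for Trav, where 0 were listed. Genotype counts that stayed at 0 were tallied as kept too. Equal summed T cell genes left 19 segments called in tumor against spleen (15 lower and 4 higher), and Bonferroni left 3 as deposited and 2 after V scaling. Leaving out 1 library gave 36 to 48 called as deposited and 11 to 22 after V scaling (11 without spleen WT 2 and without spleen KO 1), and 0 in each genotype comparison. It gave differences in effective number of −2.74 to −2.06 (Trbv) and −10.1 to −5.59 (Trav), in dissimilarity of 0.158 to 0.208 and 0.227 to 0.292, in V per constant genes of 0.064 to 0.108 and in library share of −1.75 to −1.51. The WT libraries alone gave −3.06 (Trbv) and −11.8 (Trav) in effective number, 0.215 and 0.343 in dissimilarity and −1.53 in library share (exact p = 0.1 each, the smallest possible). Families gave −0.559 and −0.352. Whether replicate numbers mark mice is not stated, and same-numbered libraries did not deviate together (r from −0.13 to 0.04). With a replicate block, 41 segments were called as deposited and 21 after V scaling (11 higher, 10 lower), and the differences were −2.53 and −8.17 in effective number, 0.190 and 0.278 in dissimilarity and −1.65 in library share (exact p = 0.0625, for Trav effective number 0.125), where 5 pairs cannot go below 0.0625. Trbv12-1 ranged from −3.46 to −2.16 and Trbv4 from −1.97 to −1.37 over 20 alternatives of the V-scaled fit, called in each. Trav3d-3 was not called under Bonferroni, nor was Trav7-2, which was also not called with the replicate block (adjusted p = 0.11) or with each locus scaled on its own. Under these alternatives 0 of the differences turned their sign. Counts carry no sign and were compared by their total alone. After V scaling the main fit called 12 lower and 6 higher, so the replicate block turned the balance though its total was tallied as kept. With each locus scaled on its own, called Trav went from 2 lower and 6 higher to 9 lower and 2 higher. Tumor values rest on few reads, which limits single segments there more than sums.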
